A study of Mus musculus with 8 samples.

Results

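Transcripts that belong to blood cells were followed through 8 RNA libraries made from sorted skeletal cells. The 10 genes described were the adult globins Hba-a1, Hba-a2, Hbb-bs and Hbb-bt, the neutrophil genes S100a8, S100a9, Ngp, Camp and Ltf, and the immunoglobulin kappa constant gene Igkc. They were taken by symbol from the 55471 gene entries of the deposited table, and they had been picked because their levels differed between the 2 rounds of libraries. Their levels by round are therefore given as a description, with no test.

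The libraries came from femurs of neonatal mice at day 3 to 5, wild type or Tet1 knockout (KO). Flow sorting had separated bone cartilage stromal progenitors (BCSP) and the skeletal stem cells (SSC) taken to lie upstream of them. Tet1 encodes a dioxygenase that oxidises 5-methylcytosine. The groups were wild-type SSC, KO SSC, wild-type BCSP and KO BCSP, with 2 libraries each, numbered round 1 and round 2 and called library 1 and library 2 here. All of them, the wild-type ones too, carried the strain name B6;129S4-Tet1tm1.1Jae/J, and none received a treatment named in the labels. What a round shared, whether the libraries of a group came from separate animals or pools, the sex of the pups and the antibodies of the sort are not given in the sources used here. A p-value below therefore measures only the spread between these libraries, which may be technical.

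As background, haemoglobin is a tetramer of alpha and beta globin chains made in red cell precursors, and globin messenger RNA is abundant in reticulocytes. Neutrophils store antimicrobial proteins in granules that fill in order during maturation in the marrow, and their cytoplasm is rich in the calcium-binding pair S100a8 and S100a9. B cells and plasma cells join 1 variable segment to a constant region for each antibody chain, and plasma cells make that single pair of chains in very large amounts. Sorts of mouse skeletal stem cells commonly discard cells that carry the leukocyte antigen CD45 (gene Ptprc) or the red cell antigen TER119.

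The libraries held 104782544 to 168004119 counts, so that 3 counts, the limit that a count of 0 allows, stood for 0.0179 to 0.0286 counts per 1e+06 counts (CPM). A list of 10 cartilage and progenitor genes summed to 304091 to 353360 CPM in every library, and Col2a1, the main cartilage collagen, alone took 24.7% to 30.6% of the counts. The labelled cell types were thus accompanied by cartilage transcripts throughout. The targeted gene Tet1 had 15.6 to 20.1 CPM in SSC of wild type against 7.67 to 12.1 CPM in KO. Wild-type BCSP library 2 had 9.37 CPM of Tet1, below the 10.2 and 12.6 CPM of KO BCSP, whereas wild-type BCSP library 1 had 22.96 CPM. Counts over the whole gene check an internal deletion only weakly.

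The promoters of the members are shown first, to let the genes of a lineage be compared by sequence. From RefSeq (GRCm38.p6), 9 of the 10 genes had an entry, and the 250 bases before the start were searched on both strands. The 4 globin promoters were searched for 3 boxes known from globin genes, the CCAAT box, the CACCC box that Klf1 binds, and the TATA-like letters ATATAA. They are shown in capitals here over the 130 bases before each start, 5′ to 3′ on the gene's strand.

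Hba-a1 (chr11:32283542-32283671, plus strand): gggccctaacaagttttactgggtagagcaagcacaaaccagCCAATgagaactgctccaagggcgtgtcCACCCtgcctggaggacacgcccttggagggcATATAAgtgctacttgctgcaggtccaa
Hbb-bs (chr7:103827929-103828058, minus strand): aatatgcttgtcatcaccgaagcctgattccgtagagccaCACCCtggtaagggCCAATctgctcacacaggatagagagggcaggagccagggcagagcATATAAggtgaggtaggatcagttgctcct
Hbb-bt (chr7:103813924-103814053, minus strand): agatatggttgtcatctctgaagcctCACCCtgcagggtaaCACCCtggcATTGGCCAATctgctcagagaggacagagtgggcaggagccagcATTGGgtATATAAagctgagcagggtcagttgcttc

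CCAAT and CACCC were present in 4 of 4 globin promoters, against 33.8% and 52.0% of the 32851 mouse promoters of the same length. ATATAA was also in 4 of 4, against 9.10% of all promoters, at 28 bases before the start in Hba-a1, 30 in Hbb-bs and 29 in Hbb-bt. In Hbb-bt the CCAAT box met a second copy on the other strand, read there as ATTGG, and a further copy lay 36 bases before the start. The full 300-base windows of Hba-a1 and Hba-a2 shared an unbroken run of 297 bases, so the alpha pair is 1 sequence for this purpose. The letters AGATAA, the core bound by GATA factors, stood in 1 of 4 globin windows (9.99% of all promoters). Of the 5 neutrophil promoters, 2 also held AGATAA, 2 held CCAAT, 3 held CACCC and 0 held ATATAA.

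For the neutrophil genes the pattern TTNNGNAA, a loose form of the site of C/EBP factors, and GAGGAA, the core of the PU.1 site, were searched, and capitals mark them on either strand.

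S100a8 (chr3:90668941-90669070, plus strand): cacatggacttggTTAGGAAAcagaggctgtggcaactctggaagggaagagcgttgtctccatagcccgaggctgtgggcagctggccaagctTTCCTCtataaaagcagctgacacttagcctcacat
Ngp (chr9:110419678-110419807, plus strand): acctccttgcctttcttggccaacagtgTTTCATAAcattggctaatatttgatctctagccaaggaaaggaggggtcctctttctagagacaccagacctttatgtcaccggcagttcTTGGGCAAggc
Ltf (chr9:111019162-111019291, plus strand): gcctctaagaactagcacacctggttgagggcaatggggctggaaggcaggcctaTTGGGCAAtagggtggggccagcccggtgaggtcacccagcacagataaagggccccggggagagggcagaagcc

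TTNNGNAA was found in 4 of 5 neutrophil promoters and also in 3 of 4 globin promoters, against 36.8% of all promoters. Ngp held it at 138, 102 and 11 bases before the start, the first of these outside the stretch shown. In Ltf, where the copy lay 75 bases before the start, its letters overlapped those of a CCAAT box on the other strand. GAGGAA was present in 2 of 5 neutrophil promoters, against 23.3% of all. These are matches of letters, and binding was not measured.

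Together the 10 genes held 52489 counts, of which 96.3% were in the 4 libraries of round 1 and 63.4% in wild-type SSC library 1 alone. In round 1 they made up 0.0254% of the wild-type SSC library, 0.00160% for KO SSC, 0.00612% for wild-type BCSP and 0.00679% for KO BCSP. In round 2 that share ran from 0.000237% to 0.000439%. Blood transcripts were traces in all libraries, and the highest trace was in 1 wild-type library. Among the 40 values of each round, 1 was 0 in round 1 and 9 were 0 in round 2. In bulk RNA, fewer blood cells and less RNA per blood cell cannot be told apart, and RNA free in the suspension was not measured.

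**Figure D1:**
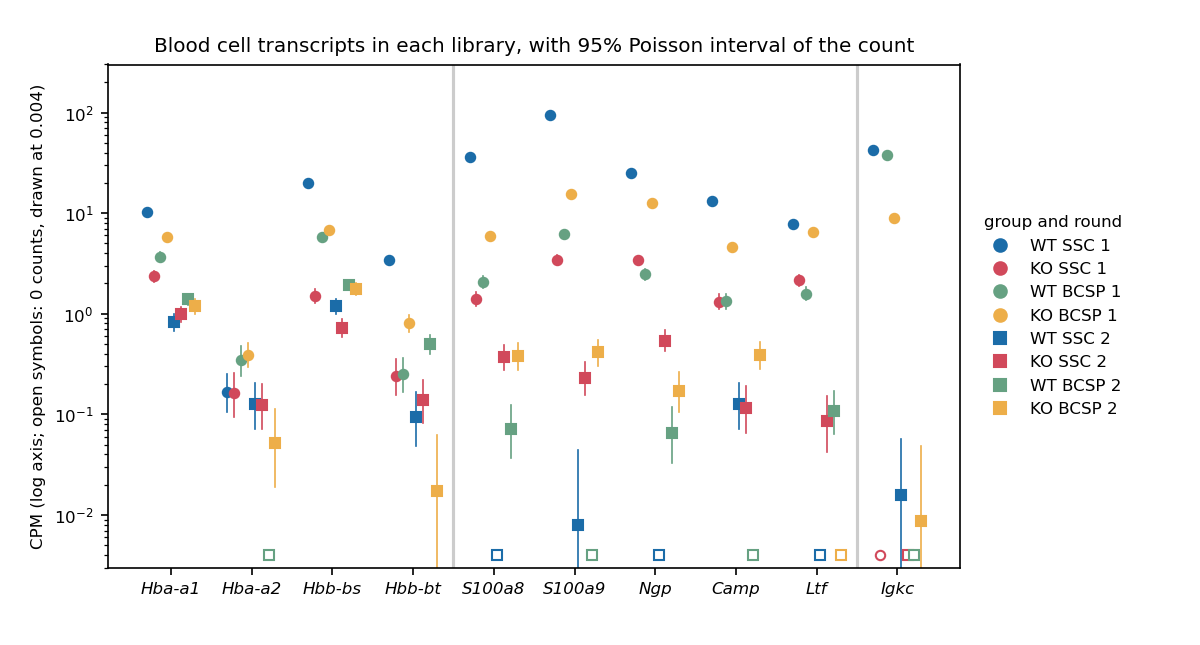
Level of each blood cell gene in the 8 libraries, in CPM on a log axis, with circles for round 1, squares for round 2 and bars for the 95% exact Poisson interval of the count. Open symbols mark 0 counts. Wild-type SSC library 1 holds the highest value for 9 of the 10 genes, and Igkc stands above 8 CPM in 3 libraries and below 0.02 CPM in the other 5.

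Hba-a1 (chr11:32283511-32284465, mm10), the major counted alpha globin gene here, had 10.3, 2.35, 3.70 and 5.73 CPM in round 1 of wild-type SSC, KO SSC, wild-type BCSP and KO BCSP. In round 2, in the same order, it had 0.821, 0.991, 1.39 and 1.19 CPM. Every round 1 library lay above every round 2 library, by 12.6-fold within wild-type SSC and 2.37-fold within KO SSC. Hba-a2 (chr11:32296489-32297298), the second alpha gene, was counted 22, 17, 37 and 52 times in round 1 and 16, 16, 0 and 6 times in round 2. Its rounds did not overlap either, but within SSC they differed by only 1.33-fold in wild type and 1.31-fold in KO. The division between the pair is uncertain: of all 150-base windows in Hba-a2 transcripts, 73.1% also occur in Hba-a1.

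Hbb-bs (chr7:103826534-103828096), an adult beta globin gene, had 20.1, 1.51, 5.82 and 6.74 CPM in round 1 and 1.18, 0.728, 1.93 and 1.77 CPM in round 2. KO SSC library 1 fell within the round 2 range, and the other round 1 libraries lay above it. Hbb-bt (chr7:103812524-103813996), its neighbour and close copy, was counted 449, 25, 27 and 107 times in round 1 and 12, 18, 84 and 2 times in round 2. It went the other way in wild-type BCSP, where library 1 had 0.501 times the level of library 2. In KO BCSP the ratio of 107 to 2 counts gave 46.8-fold, with an exact counting interval of 12.6 to 391. Of the Hbb-bs windows 45.6% are shared with Hbb-bt, so this split too is uncertain. As background, 129 strains carry another beta globin haplotype than C57BL/6, whose genes the reference names, and the strain here is mixed. How reads of such alleles were counted was not tested, and it bears on the beta values and on the alpha share below.

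Summed over the 4 globins, round 1 stood at 34.0, 4.26, 10.1 and 13.7 CPM and round 2 at 2.22, 1.98, 3.82 and 3.02 CPM. The round 1 sum exceeded the round 2 sum in all 4 groups, by 15.3-fold in wild-type SSC, 2.15-fold in KO SSC, 2.65-fold in wild-type BCSP and 4.52-fold in KO BCSP. Alpha genes made up 30.8% of globin counts in wild-type SSC library 1 (exact binomial 95% interval 29.4% to 32.2%) and 59.0% in KO SSC library 1 (54.2% to 63.6%). The remaining libraries lay between 36.3% and 56.3%. The balance of alpha to beta counts thus differed between libraries beyond counting error.

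S100a9 (chr3:90692632-90695721), one chain of the calcium-binding heterodimer calprotectin, was counted 12484, 360, 669 and 2062 times in round 1. In round 2 it was counted 1, 30, 0 and 48 times. S100a8 (chr3:90668978-90670035), the other chain, had 4714, 148, 224 and 791 counts in round 1 and 0, 48, 12 and 44 in round 2. Both genes were separated completely by round, from 3.44 to 95.3 CPM against 0 to 0.414 CPM for S100a9. S100a8 was at least 1520-fold higher in wild-type SSC library 1 than the floor of 3 counts in library 2. For S100a9 the same pair, with 1 count in library 2, gave a ratio whose exact counting interval starts at 2167.

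Ngp (chr9:110419747-110423012) encodes neutrophilic granule protein, and Camp (chr9:109847379-109849617) encodes the precursor of the antimicrobial peptide cathelicidin. Ngp had 25.1, 3.39, 2.46 and 12.7 CPM in round 1 and 0, 0.542, 0.0655 and 0.172 CPM in round 2. Camp had 13.1, 1.32, 1.34 and 4.57 CPM in round 1 and 0.126, 0.116, 0 and 0.388 CPM in round 2. Ltf (chr9:111019271-111042767), the gene of the iron-binding secondary granule protein lactoferrin, had 7.81, 2.15, 1.59 and 6.48 CPM in round 1. Its round 2 values were 0, 0.0852, 0.107 and 0 CPM. In each of these 3 genes wild-type SSC library 1 was highest, KO BCSP library 1 came next, and the rounds did not overlap.

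The 5 neutrophil genes summed to 177, 11.7, 13.7 and 45.3 CPM in round 1 and to 0.134, 1.35, 0.244 and 1.35 CPM in round 2. Within groups, round 1 was 1321-fold higher in wild-type SSC (17 counts in library 2), 8.68-fold in KO SSC, 56.0-fold in wild-type BCSP and 33.5-fold in KO BCSP. The ratio of the round means was 80.5 for the neutrophil genes and 5.62 for the globins, and without wild-type SSC library 1 it was 30.6 and 3.38. Globin counts made up 16.1% to 42.5% of the globin and neutrophil counts in round 1 and 59.5% to 94.3% in round 2.

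In round 1 S100a9 made up 72.6%, 70.9%, 74.9% and 72.3% of the counts of the S100a8 and S100a9 pair, with overlapping intervals, although the pair's level spanned from 508 to 17198 counts. The 2 round 2 libraries with at least 20 such counts had 38.5% (27.7% to 50.2%) in KO SSC and 52.2% (41.5% to 62.7%) in KO BCSP, both below every round 1 library. The pair's share of all neutrophil counts was less even, from 41.4% in KO SSC library 1 to 74.0% in wild-type SSC library 1. Ngp took 45.7% to 54.6% of the counts of Ngp, Camp and Ltf in round 1. So in round 1 the 2 calprotectin chains kept 1 ratio, while their balance with the granule proteins differed between libraries.

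**Figure D2:**
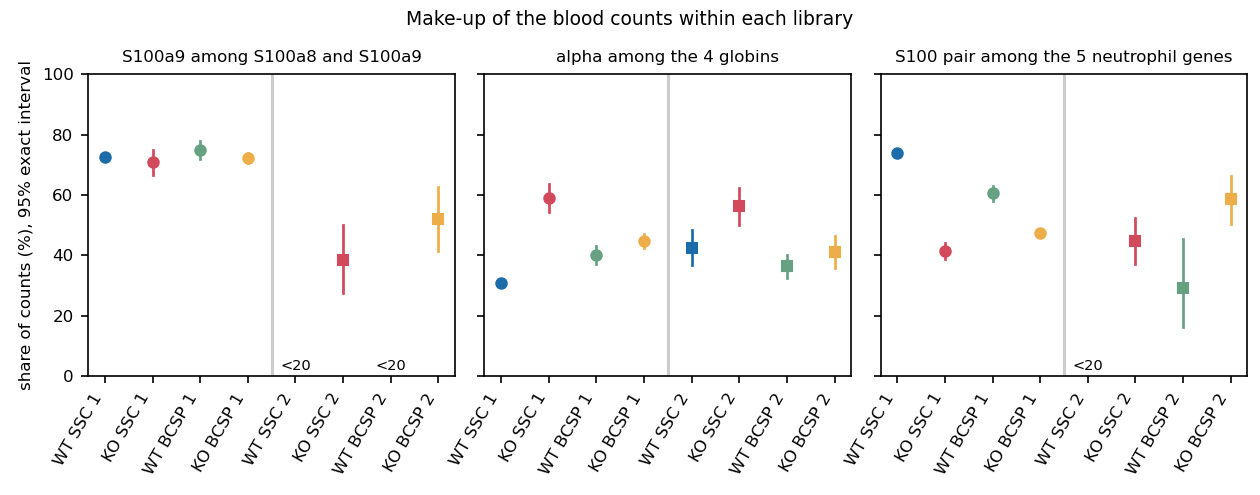
Share of S100a9 in the S100a8 and S100a9 pair, of alpha genes among the 4 globins, and of the S100 pair among the 5 neutrophil genes, in percent of counts with the exact binomial 95% interval, for each library. Shares over fewer than 20 counts are left out. S100a9 lies between 70.9% and 74.9% in round 1, whereas the alpha share runs from 30.8% to 59.0% there.

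Igkc (chr6:70726435-70726966), the constant region carried by every kappa light chain, was counted 5602, 4029 and 1192 times in 3 libraries of round 1, those of wild-type SSC, wild-type BCSP and KO BCSP. It was counted 0 times in KO SSC library 1, which allows up to 0.0286 CPM, and 2, 0, 0 and 1 times in round 2. The order differed from that of the neutrophil genes: wild-type BCSP library 1 had 37.4 CPM of Igkc beside 13.7 CPM of neutrophil transcripts, and KO BCSP library 1 had 8.98 CPM beside 45.3 CPM. Wild-type BCSP library 1 was at least 2094-fold above the floor of library 2. Igkc in wild-type SSC gave a ratio of 2709 between the rounds, from 2 counts, with an exact counting interval of 750 to 22373.

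The variable segments that go with Igkc were few, and different in each of the 3 libraries. Of 160 kappa variable genes in the table, Igkv4-57-1 and Igkv6-15 held 1432 and 639 counts in wild-type SSC library 1, together 98.2% of its 2110. Wild-type BCSP library 1 had Igkv12-44 and Igkv12-46 with 680 and 269 counts, 97.3% of 975. KO BCSP library 1 had Igkv1-117 with 560 of 587 counts. The other 5 libraries had 0 to 4 kappa variable counts each.

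Heavy chains followed the same division. Of 185 heavy variable genes, Ighv1-82 (737 counts) and Ighv1-53 (143) led in wild-type SSC library 1, Ighv1-7 (273) and Ighv1-80 (131) in wild-type BCSP library 1, and Ighv9-4 (264 of 271) in KO BCSP library 1. Among heavy constant genes, Igha, the IgA class, held 6988 counts or 96.3% in wild-type SSC library 1. Ighg2c and Ighg2b, of the IgG class, held 4473 and 1662 counts in wild-type BCSP library 1, and Ighg2b held 2054 counts or 89.9% in KO BCSP library 1. The leading variable segments and the leading constant gene thus differed among the 3 libraries, though both BCSP libraries were led by an IgG gene and Ighg2b was high in both. Reads of close variable genes may be assigned to a relative, so 2 segments in 1 library need not be 2 chains.

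Jchain, which links IgA and IgM into polymers, was counted 1202, 1, 240 and 180 times in round 1 and 2, 8, 30 and 8 times in round 2. Ighm, the IgM constant gene, was present in all libraries, at 68 to 216 counts in round 1 and 13 to 49 in round 2, KO SSC library 1 included with 88. Lambda constant genes had 68 counts in all, against 10826 for Igkc. Genes of the B and plasma cell list were present in both rounds, with sums of 3.71 to 6.66 CPM in round 1 and 3.66 to 6.50 CPM in round 2. Within it, the mature B cell gene Ms4a1 had 1 count over all libraries and the plasma cell gene Mzb1 at most 6, while Cd79a, a part of the B cell receptor, had 49, 16, 48 and 5 counts in round 1 and 22, 13, 23 and 30 in round 2.

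**Figure D3:**
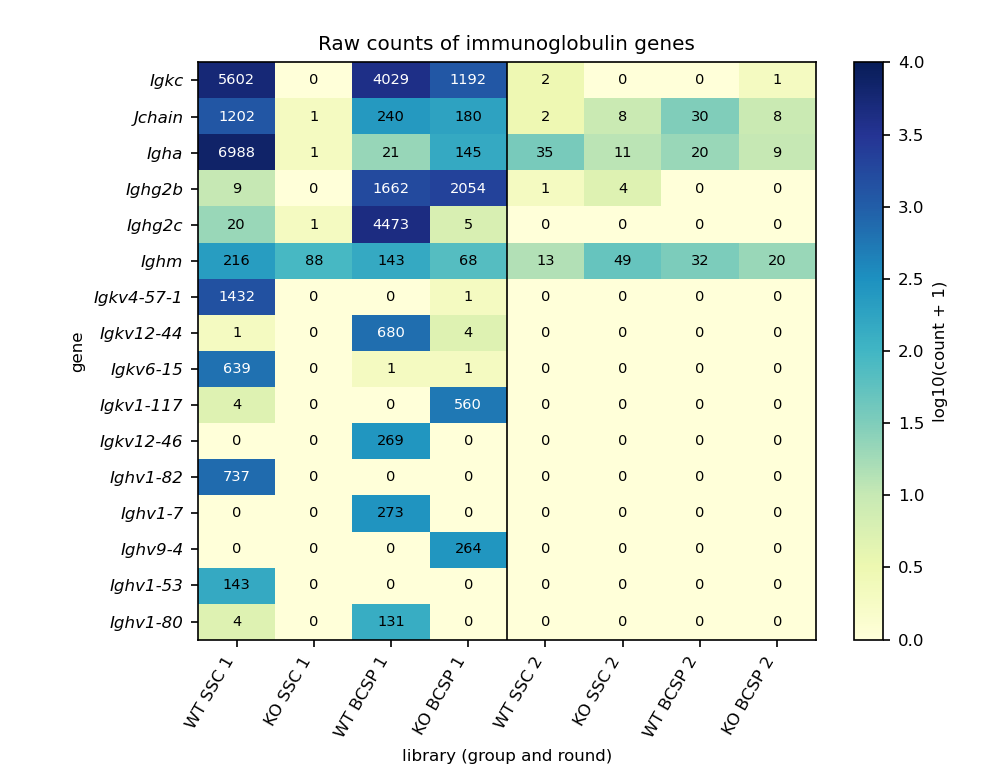
Raw counts of Igkc, the J chain, heavy constant genes and the 5 kappa and 5 heavy variable genes with most counts, for each library, with colour on a log10(count + 1) scale. The 3 libraries with Igkc each show a different set of variable genes and a different leading heavy constant gene. KO SSC library 1 and the round 2 libraries show 0 counts in nearly all variable genes plotted. They keep counts of Ighm, 88 in KO SSC library 1 and 13 to 49 in round 2, beside 68 to 216 in the 3 libraries with Igkc.

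Between rounds, 7 of the 10 genes had all 4 round 1 libraries above all 4 round 2 libraries, beside 4.11% of the 22153 genes tested with that order and 2.91% with the reverse. A quasi-likelihood model in edgeR with a mean per group and a round term called 390 genes (1.76%) at an adjusted p below 0.05, of which 147 (0.664%) were lower and 243 (1.10%) higher in round 2. Of the members, 4 (Hba-a1, Hbb-bs, Camp and Igkc) were among the lower ones. Since the members were chosen on this contrast, nothing is read from either count. All 10 passed the filter on low counts, which a gene can do through its high libraries alone.

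Genes of the same lineages that are not members were counted from 12 lists. Of 176 listed genes 118 were tested, and 16 fell in round 2 in edgeR while 0 rose, or 13.6% of those tested beside 0.664% of all genes. Their median log2 difference between round 2 and round 1 was -1.20, beside 0.00 for all genes. Where 1 library is left out below, the group mean fits its partner exactly. That whole group then drops out of the comparison of rounds, and more genes pass the low-count filter. The lists were chosen with these libraries' results known, so the count of 16 is a description of them. Single libraries moved that number: without wild-type SSC library 1, 8 listed genes fell, 6 of them among the 16. Without KO SSC library 1 or 2 the number was 31 or 32, without either wild-type BCSP library 29, and without KO BCSP library 2 it was 30. Chil3, Csf3r, Lyz2 and Stfa2 were the 4 that fell whichever single library was left out.

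Among 23 genes of later granules and mature neutrophils, 6 fell in round 2, and the list's median log2 difference was -4.78. Stfa2, a stefin protease inhibitor of neutrophils, had 19.2, 0.668, 0.659 and 2.91 CPM in round 1 and 0.103, 0.0232, 0 and 0.0862 CPM in round 2, with a log2 difference of -6.33 ± 0.51 (SE) and an edgeR adjusted p of 4.56e-05. Chil3, a chitinase-like secreted protein, differed by -6.36 ± 0.91 (edgeR adjusted p = 0.00319). Csf3r, the receptor of granulocyte colony-stimulating factor, had 95, 32, 84 and 50 counts in round 1 and 1 count in all of round 2 (edgeR adjusted p = 0.00377). Lcn2, the most abundant gene of the list and one that other cell types also make, behaved otherwise. It had 11.4, 4.81, 7.05 and 9.48 CPM in round 1 and 1.61, 5.47, 4.65 and 11.7 CPM in round 2, so its rounds overlapped.

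Primary granule genes, filled at an earlier stage of maturation, were far lower in level, at 0.897 to 4.56 CPM summed in round 1 and 0.466 to 0.956 CPM in round 2. Of 6 tested, Mpo, the gene of myeloperoxidase, fell (edgeR log2 difference -4.49 ± 0.78, adjusted p = 0.0101). Its counts were 224, 22, 30 and 186 in round 1 and 1, 2, 4 and 10 in round 2. Elane, the gene of neutrophil elastase, had 26, 12, 4 and 49 counts in round 1 and 0, 12, 0 and 0 in round 2. Gfi1, the most abundant gene of the list, had 1.58, 0.468, 0.603 and 0.392 CPM in round 1. Its round 2 values of 0.450, 0.449, 0.548 and 0.750 CPM overlapped these.

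On the red cell side, 1 of 9 tested erythroid genes fell, Slc4a1, the anion exchanger of the red cell membrane (edgeR log2 difference -4.38 ± 0.83, adjusted p = 0.0172). It had 549, 89, 242 and 296 counts in round 1 and 13, 0, 8 and 147 in round 2, so KO BCSP library 2 lay within the round 1 range. Rhd, the most abundant gene of the list, had 4.56, 4.31, 3.92 and 3.95 CPM in round 1. In round 2 it had 1.91, 1.53, 3.57 and 1.40 CPM, and it was not called (edgeR adjusted p = 0.115). Its rounds did not overlap, and it made up much of the list's sum. Alas2, the erythroid enzyme that opens heme synthesis, was counted 253, 73, 109 and 119 times in round 1. In round 2 it was counted 108, 66, 78 and 112 times, with overlapping rounds. Genes of heme synthesis, which all cells carry out, summed to 165 to 186 CPM in every library, and 0 of 11 passed the test in edgeR, DESeq2 or limma-voom, with 0 at an unadjusted edgeR p below 0.05. Embryonic globins and the minor adult ones had 31 counts in round 1 and 24 in round 2, and none of the 7 passed the filter.

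**Figure D4:**
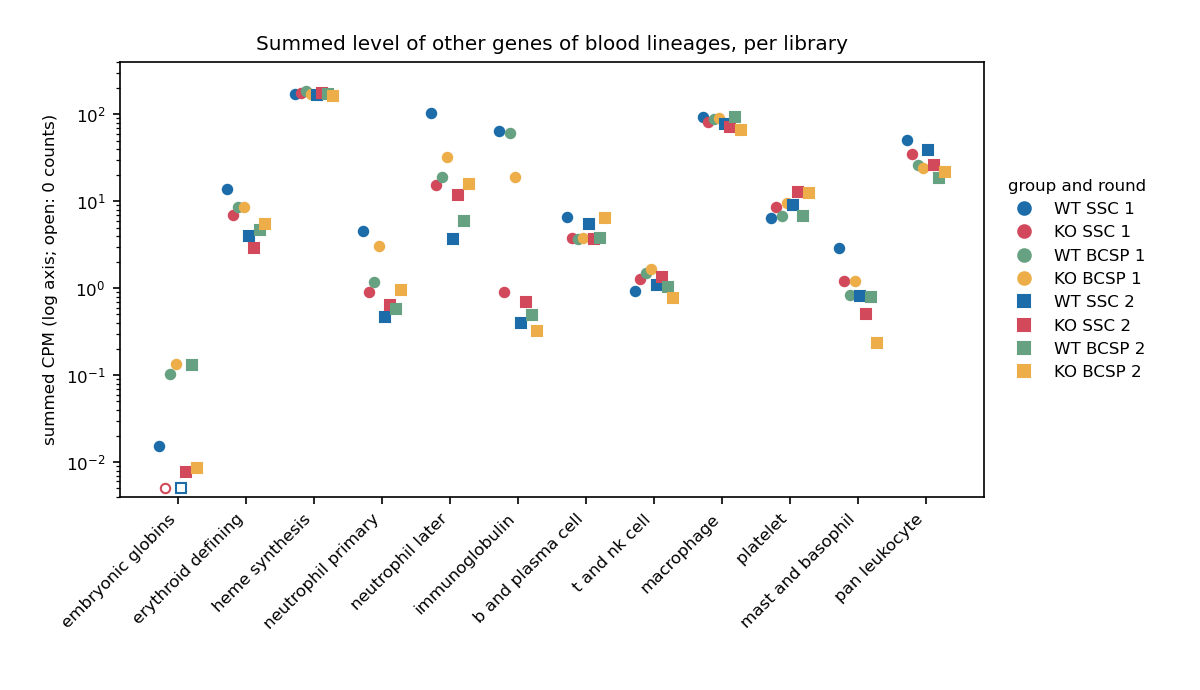
Summed CPM of the listed genes of each blood lineage other than the members, on a log axis, for each library (circles for round 1, squares for round 2). Immunoglobulin and erythroid sums lie higher in all round 1 libraries than in any of round 2. So does the mast cell and basophil sum, at 0.845 to 2.90 CPM against 0.233 to 0.813 CPM. Heme synthesis stays between 165 and 186 CPM.

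Markers of other leukocytes moved less evenly. Of 18 macrophage and osteoclast genes 2 fell. Lyz2, the lysozyme of myeloid cells, differed by -1.94 ± 0.31 on the log2 scale (edgeR adjusted p = 0.00628), and Ly6c2, a surface antigen of monocytes, had 199, 1, 51 and 53 counts in round 1 and 0 in round 2 (edgeR adjusted p = 0.00869). The list's sum overlapped between rounds, at 81.1 to 94.6 and 65.5 to 92.4 CPM. Of 12 pan-leukocyte genes 3 fell, the surface antigen Cd52, the GTPase Rac2 and the adaptor Tyrobp. Ptprc, the CD45 gene, had 142, 10, 1 and 39 counts in round 1 and 3, 1, 0 and 11 in round 2, and did not pass. In edgeR, Pf4 of platelets, Hdc of mast cells and basophils, and Ighg2c each fell as the only gene called in their list. The platelet and megakaryocyte list did not move with Pf4. Of its 10 tested genes 6 had a log2 difference above 0, and the list median was 0.27. Its sum was 6.49 to 9.57 CPM in round 1 and 6.85 to 12.9 CPM in round 2. Ighg2c had 4473 counts in wild-type BCSP library 1 and 20, 1 and 5 in the other libraries of round 1. By limma-voom 4 of 6 immunoglobulin genes and 0 of 4 mast cell and basophil genes were called. The B and plasma cell list and the list of T and NK cells had 0 of 12 and 0 of 7 called by edgeR, 0 by DESeq2 and limma-voom, and 1 and 0 with an unadjusted edgeR p below 0.05.

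One gene of the skeletal sort also moved with round. Cd200, a surface antigen used to recognise the stem cell, had 47.4 to 71.3 CPM in round 1 and 24.7 to 31.9 CPM in round 2 (edgeR log2 difference -0.93 ± 0.15, adjusted p = 0.00784). Of the 10 cartilage genes 0 were called by edgeR and limma-voom and 1 by DESeq2, with 2 at an unadjusted edgeR p below 0.05, and of the 7 sort markers edgeR called 1, Cd200, and DESeq2 2. The part of Cd200 in the differences of the blood genes was not tested.

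Between genotypes, 0 of the 10 genes were called in SSC and 0 in BCSP by edgeR, beside 1 gene of 22153 (0.00451%) in each comparison. None of the 10 had an unadjusted edgeR p below 0.05. Of the 10, limma-voom called 0 in either cell type, and DESeq2 called 1, Igkc, in SSC and 0 in BCSP. The edgeR fit left the round out, and the SE of the 10 log2 fold changes in SSC ran from 1.27 to 9.86. The lack of calls therefore says little about these genes. Over all genes, unadjusted p-values below 0.05 were found for 266 genes in SSC and 1371 in BCSP. No gene was called for the difference between the KO effects in SSC and BCSP (0%) by edgeR, DESeq2 or limma-voom without a round block. For that difference 282 genes had an unadjusted edgeR p below 0.05. With the round as a block, edgeR called 2 genes for the difference and 2 in SSC, with Igkc in both, and 3 in BCSP. In both KO SSC libraries Igkc lay below both wild-type libraries, the 1 member of 10 to do so beside 10.7% of all genes, and 0 of 10 lay above (17.1% of all genes). In round 2 that order was 0 against 2 counts, a difference not detectable at this depth. In BCSP no member was separated in either direction, beside 17.7% and 15.8% of all genes.

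Within rounds, the neutrophil sum in SSC changed its order between genotypes, while the globin sum differed in round 1 and was nearly equal in round 2. The neutrophil sum was 15.1-fold higher in wild type than in KO in round 1 and 10.05-fold higher in KO than in wild type in round 2. The round 2 value rests on 17 counts in wild type, 16 of them of Camp, which had 15 counts in KO. For the globin sum wild-type SSC was 7.997-fold higher in round 1 and 1.12-fold higher in round 2, at 282 against 256 counts. In round 2 Hba-a1 and Hbb-bt were higher in KO SSC, Hbb-bs was higher in wild type, and Hba-a2 had 16 counts in each. In BCSP the neutrophil sum was higher in KO in both rounds, by 3.31-fold and 5.54-fold, while the globin sum was 1.35-fold higher in KO in round 1 and 0.793 times the wild-type level in round 2.

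The fitted log2 fold change of KO against wild type in SSC was below 0 for all 10 genes. Without wild-type SSC library 1 it was above 0 for 8 of them, all but Hbb-bs and Igkc. That fit set wild-type library 2 alone against KO libraries of both rounds, with no round term. The members were chosen on the difference between rounds, so a rise was built in and nothing is read from it. For Hba-a1 the fitted value went from -1.81 to 0.99 and for Camp from -3.29 to 2.45. Within round 2 alone, KO SSC had 1.21 times the wild-type level of Hba-a1 and 0.920 times that of Camp. Fitted values of the genes left at 0 in wild type depend on the prior count and are no measure of size. In BCSP the fitted value was above 0 for 9 genes, and without KO BCSP library 1 it was below 0 for all 10. There KO library 2 alone stood against wild type of both rounds, so a fall was built in as well. Within round 2 alone, the neutrophil sum was 5.54-fold higher in KO BCSP, and the globin sum was 0.793 times the wild-type level. Other settings turned single genes as well: limma-voom turned S100a8, Ngp and Ltf in SSC, and leaving out wild-type BCSP library 2 turned Hba-a2 and Hbb-bs in BCSP. Hbb-bs and Igkc kept their sign in SSC in 14 of 14 alternatives. Each run that left out a library of the groups compared was unbalanced by round.

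Without wild-type SSC library 1, the median log2 fold change in SSC changed sign in 5 of the 11 lists with tested genes, those of both neutrophil stages, immunoglobulins, macrophages and pan-leukocyte genes, and kept it in the other 6. Without KO BCSP library 1, it changed sign in 6 of 11 in BCSP. These fits too set a single library of round 2 against libraries of both rounds, with no round term. For lists that differ by round, such a turn cannot be told apart from the difference between rounds. Later neutrophil genes had a median log2 fold change of KO against wild type of -2.83 in SSC (19 of 23 below 0), beside 0.01 for all genes, and 2.65 without wild-type SSC library 1, a value that depends on the prior count where library 2 has 0 counts. In BCSP the median was 0.89 (20 of 23 above 0), and -0.89 without KO BCSP library 1. In either cell type 0 of the 23 passed in edgeR, DESeq2 or limma-voom, and 0 had an unadjusted edgeR p below 0.05. Pan-leukocyte genes had a median of -1.56 in SSC, with 12 of 12 below 0, and 0.85 without wild-type SSC library 1.

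The genes most like each pattern were found by Pearson correlation of log2 CPM over the 8 libraries, given as a description. Nearest to the summed neutrophil genes were Retnlg (r = 0.986), a resistin-like protein of neutrophils, Cstdc5 (0.982), Stfa3 (0.982) and Stfa1 (0.980), of the cystatin and stefin family, and Tmsb4x (0.962), the actin-binding thymosin beta 4. Retnlg was counted 1051, 62, 111 and 173 times in round 1 and 0, 18, 0 and 14 times in round 2. Tmsb4x differed in scale, with 12.4 to 25.0 CPM in round 1 and 4.66 to 7.27 CPM in round 2.

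Nearest to Igkc were Ces1d (r = 0.995), a carboxylesterase, Cidec (0.989), a lipid droplet protein of adipocytes, Ly6c2 (0.981), Cebpe (0.976), a transcription factor of granulocyte maturation, and Sec14l5 (0.971). Ces1d was counted 53, 0, 63 and 23 times in round 1 and Cidec 130, 0, 56 and 23 times, and both had 0 counts in the 4 round 2 libraries. So KO SSC library 1 had 0 counts of these transcripts, as it had of Igkc. The globin sum was followed by Ankrd22 (0.959), Abracl (0.955), Mctp1 (0.953), Lst1 (0.952) and Ly6c2 (0.9501). By Spearman's rank correlation the first 5 genes shared 0 with these for Igkc, 1 for the globins and 1 for the neutrophil genes, and within either round alone 0. Most of these genes were scarce, with Ankrd22 at 34, 0, 6 and 14 counts in round 1 and 0 in round 2, and all correlations shared the contrast between the rounds and library depth.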

How the data were processed

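Gene counts deposited by the authors, whole numbers per gene and library, were used as given. The tools STAR, featureCounts and DESeq2 and the build mm10 are named, per the submitters' processing notes, but the deposited table's name mentions htseq, so the counting program is uncertain. Columns headed SCC and BCP were read as SSC and BCSP. Their versions, the annotation, the strand of counting and the handling of multimapped reads are not given in the sources used here, so antisense and near-identical copies cannot be told apart. The deposited table held 0 value columns other than those of the 8 libraries. Of 55471 entries, 55144 matched GENCODE M21 by ID, which gave positions and exon lengths.

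CPM were counts per 1e+06 of the library total. Tests used edgeR 4.0.16 in R 4.3.3 (limma 3.58.1, DESeq2 1.42.0, data.table version 1.17.8), with TMM factors of 0.854 to 1.06, filterByExpr at a minimum count of 10 and total of 15, a robust quasi-likelihood fit of all libraries and Benjamini-Hochberg adjustment over 22153 genes, threshold 0.05. The fit had 1 mean per group (4 residual degrees of freedom), and for the comparison of rounds a round term beside it (3). On simulated counts the SSC comparison recovered 32% of 2-fold and 99% of 4-fold changes, and the comparison of rounds 70% and 100%. These runs fitted 20626 and 20753 genes. They gave every gene the same spread and changed only well-counted genes. The rates therefore do not apply to the blood genes, whose counts were often low and uneven between libraries. Libraries of a group differed beyond counting noise. Intervals cover counting error only, at 95%. Log CPM used a prior count of 2. Shares needed 20 counts.

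The members and lists were chosen with earlier results of these data known. Listed genes to examine were named by a rule, the 3 with the highest mean CPM per list and any called. The 5 genes most like each pattern were added. Only some of the genes under this rule are described in the text. Others named (Elane, Ptprc, Ms4a1, Mzb1, Cd79a, Jchain, Ighm, the variable genes) were chosen after their values were seen. Alternatives were DESeq2, limma-voom, other scaling, no filter, a round block and leaving out each library.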

Additional observations from a re-analysis of the deposited data

Results flagged for a closer look

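In 3 of the 54 tested genes examined (members and genes named by rule), both KO libraries lay below both wild-type libraries in SSC and above both in BCSP, beside 0.943% of all 22153 genes, and 2.17% for a crossed order of either kind. Among all 118 listed genes tested, 6 had a crossed order of either kind. Laptm5, a lysosomal protein of blood cells, stood in SSC at 3.57 and 2.86 CPM for wild type against 2.53 and 2.04 for KO. In BCSP it stood at 2.13 and 2.02 for wild type against 2.59 and 2.24 for KO. The difference of its log2 KO effects, SSC minus BCSP, was -0.70 ± 0.55 (SE). For Plek, the platelet and leukocyte protein pleckstrin, that difference was -2.18 ± 0.79, and for Pou2af1, a B cell coactivator, it was -1.75 ± 0.96. In edgeR the adjusted p of the difference was 0.9999 for each of the 3 genes. In KO SSC library 2 and wild-type SSC library 2, Pou2af1 was nearly equal, at 0.449 and 0.450 CPM. Wild-type SSC library 1 held the highest value of all 3 genes, and its part in them was not tested.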

How the results depend on the processing

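Under the alternatives run, the round ratios of the globins, neutrophil genes and Igkc moved by less than their spread between the 4 groups. That spread was wide, from 8.68-fold to 1321-fold for the neutrophil genes, so the rule would pass large shifts. The largest shift by fold was that of the neutrophil ratio, from 80.5 to 30.6 without wild-type SSC library 1. All 10 members stayed lower in round 2 in 14 of 14 alternatives. Since they were chosen on this contrast, nothing is read from that. Genes called between rounds, 390 in edgeR, came to 937 with DESeq2, 861 without the low-count filter, 219 with library totals only and 222 with no group term, and to 275 to 3909 when single libraries were left out. The 2 highest, 3909 and 3824, were without wild-type BCSP libraries 1 and 2. With library totals only, 115 were higher and 104 lower in round 2, against 243 and 147. Calls in SSC (1) came to 9 with DESeq2, 0 with limma-voom, 4 without the filter and 1 to 4 with a library left out. Calls in BCSP (1) came to 20 with DESeq2, 38 without the filter and 1 to 2 with a library left out. Listed genes that fell in round 2 (16) came to 31 with DESeq2, 32 without the filter and 8 to 32 with a library left out. The causes were not tested. In the comparison of rounds, leaving out a library also removes what its partner tells about the round, and more genes pass the filter. The labels do not say what a round shares, and deviations of same-round libraries correlated at 0.0234 to 0.240. These values do not settle whether the libraries are paired, and the main genotype fit left the round out. With the replicate block, 2 genes were called in SSC, 3 in BCSP and 2 for the difference of the KO effects, with Igkc called in SSC and in that difference. Differences under 3 counts a library were not detectable at these depths.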
